A study of Mus musculus with 3 samples.

Results

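The genes described here are the 6 receptors Slamf1, Slamf6, Cd84, Ly9, Slamf7 and Cd48 of the signaling lymphocytic activation molecule (SLAM) family and Sh2d1a, which encodes their adaptor SAP. They were taken by gene name, with earlier results of these data known, and are 7 of the 25759 genes listed in the deposited tables. RNA was sequenced from T follicular regulatory (TFR) cells, sorted from spleen and mesenteric lymph nodes as B220-CD4+CXCR5+GITRhi cells that carried GFP from the Prdm1 locus. There was 1 library for each of 3 genotypes, so no spread between mice can be given and no p-value is reported. No library of wild-type TFR cells was among them, so high and low below compare these libraries only.

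Mice of the genotype Nfatc1 fl/fl.Prdm1 +/gfp.FIC gave the library labelled N, and their floxed Nfatc1 is removed by Cre. The genotype Nfatc1 caaA.Prdm1 +/gfp.FIC gave the library labelled αA, whose cells express the constitutively active short isoform NFATc1/αA after Cre activity. The library labelled PαA has the genotype Nfatc1 caaA.Prdm1 fl/gfp.FIC, in which the floxed Prdm1 allele, encoding Blimp-1, is deleted as well. All 3 genotypes share a Prdm1 gfp reporter allele and FIC, a Cre made from the Foxp3 locus through an internal ribosome entry site. Beside the gfp allele, N and αA have an unaltered Prdm1 allele and PαA, labelled Blimp-1-deficient, has the floxed one. No library is thus from mice that are wild type for Prdm1. In the study, a reporter of FIC Cre activity also marked some Foxp3-negative T cells. The paper reasoned that these could be former regulatory T cells or former TFR cells. All mice received 125 µg of NP-KLH in alum, a hapten on a carrier protein, a boost on day 7, and were analysed on day 10. The number of mice pooled for a library is not given in the sources used here.

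SLAM family receptors are immunoglobulin-type surface proteins, and most of them bind a copy of themselves on the neighbouring cell. Tyrosine motifs in their tails recruit SAP, a small SH2 domain protein that brings in the kinase Fyn, or, where SAP is scarce, phosphatases that turn the signal around. In follicular T cells, SAP is known to be needed for lasting contact with B cells and so for the germinal center. CD48 stands apart as a receptor without a tail, tied to the membrane by a lipid anchor, which binds CD2 and CD244.

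The RPKM used below is the number of exon reads divided by exon length and library size, so that it can be compared between genes. The library total was between 25465829 (PαA) and 29726219 reads (N). Intervals are exact 95% intervals for counting error, and since reads were not marked by molecule they do not cover amplification or differences between mice. The level of Nfatc1 was 63.6 RPKM in N, 62.9 in αA and 32.4 in PαA, which goes against the labels, although reads from undeleted exons count as well. Prdm1 was at 25.6, 24.9 and 10.0 RPKM and Foxp3 at 32.7, 20.9 and 15.3 RPKM in the same order. All 5 T cell markers with an exon length (Cd3d, Cd3e, Cd3g, Cd4 and Cd5) exceeded 5 RPKM in every library, as did the 5 regulatory T cell markers Foxp3, Ctla4, Ikzf2, Il2ra and Tnfrsf18. Of the 4 follicular markers, Cxcr5, Icos and Pdcd1 exceeded 5 RPKM in every library, and Bcl6 was at 9.16, 5.96 and 4.71 RPKM. The median gene of those above 5 RPKM in any library had a log2 ratio of -0.14 for αA against N, -0.06 for PαA against αA and -0.19 for PαA against N. With TMM factors, which centre the bulk of the genes, these medians were 0.02, 0.01 and 0.04, so a ratio of RPKM is given with its TMM value where the shift matters.

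In the order of their levels, Cd48 came first, Sh2d1a second and Ly9 came next in all 3 libraries, and Slamf7 came last. The middle of the order differed between libraries. Slamf1 stood above Cd84 and Slamf6 in N, Cd84 stood above Slamf1 and Slamf6 in αA, and Slamf6 stood above Cd84 and Slamf1 in PαA. In αA the neighbours Slamf1 and Slamf6 did not differ beyond counting error, with a ratio of their RPKM of 1.06 (95% interval 0.994 to 1.13). Cd48 and Sh2d1a belonged to the most abundant messages, above at least 95.7% of the genes with reads in each library. Slamf7 lay above 32.1% of these genes in N and 49.8% in αA.

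**Figure D1:**
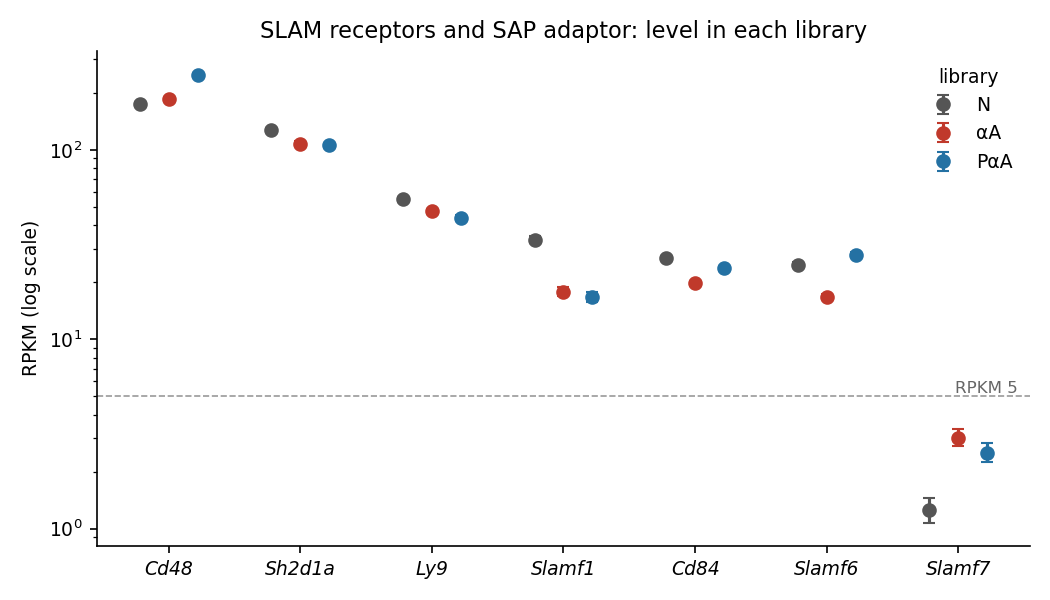
Level of each gene in each library, as RPKM on a log axis, with points for N (grey), αA (red) and PαA (blue) and bars for the 95% Poisson interval of the read count. The other 6 genes lie above the dashed line at 5 RPKM in every library and Slamf7 lies below it in all 3.

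Across the 6 genes above 5 RPKM, the median log2 ratio was -0.34 for αA against N, 0.12 for PαA against αA and -0.22 for PαA against N. The direction of the latter 2 medians depends on the scaling, since PαA against αA was -0.045 with TPM and PαA against N was 0.0045 with TMM factors. None of the 6 passed 2-fold in αA against N or in PαA against αA, where 4.25% and 4.63% of all 7017 genes above 5 RPKM did. In PαA against N, 1 of the 6, Slamf1, passed as lower, where 10.3% of all genes passed either way and 7.77% as lower. At more than 1.5-fold, Slamf1 alone passed in αA against N, as lower, where 14.1% of all genes passed (3.12% higher, 11% lower). Slamf6 alone passed in PαA against αA, as higher, where 14.7% passed (5.53% higher, 9.19% lower). Slamf1 alone passed in PαA against N, as lower, where 28% passed (5.67% higher, 22.3% lower). These calls depend on the scaling. With TMM factors Cd48 also passed 1.5-fold as higher in PαA against N (log2 0.74). With TPM, Slamf6 no longer passed in PαA against αA (0.57) but passed as lower in αA against N (-0.59). The share of all genes past 1.5-fold was not computed on these scales. With 6 genes, so few calls in a comparison do not set the family apart from the background. The comparisons share libraries and are therefore not independent of each other.

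**Figure D2:**
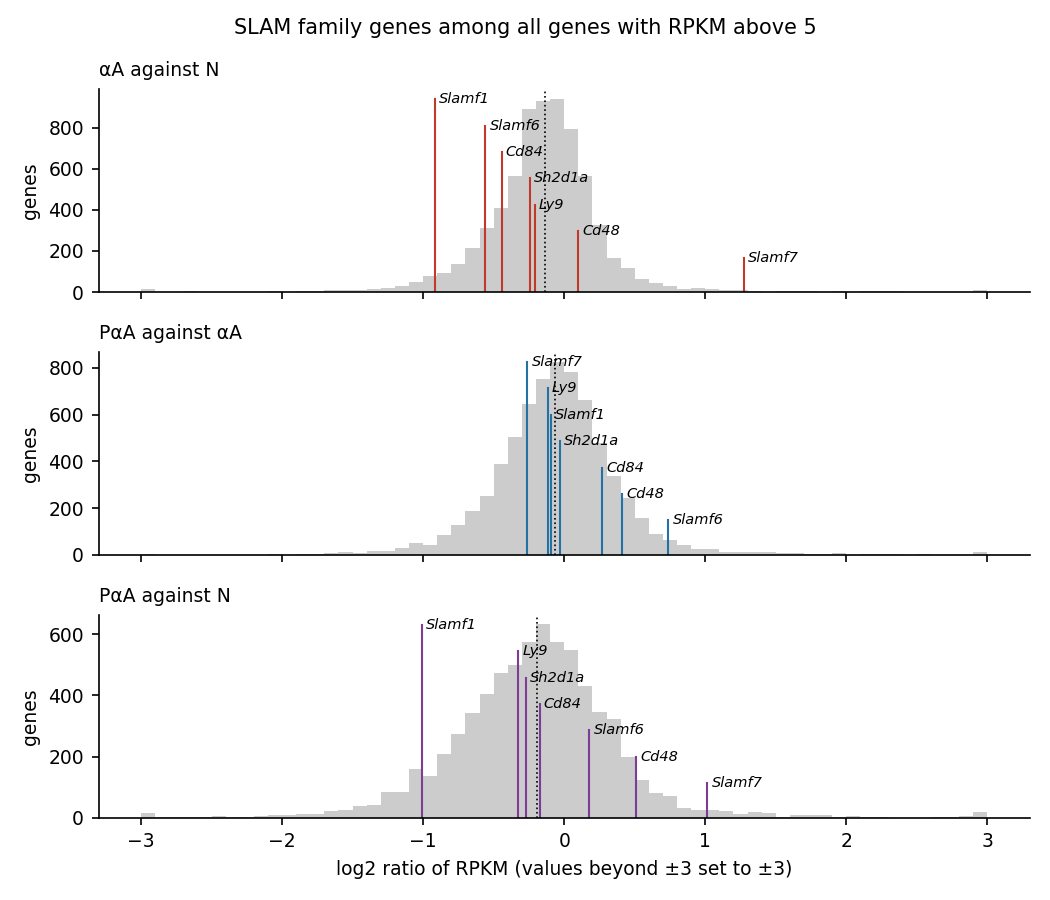
Log2 ratios of RPKM of all genes above 5 RPKM as grey histograms, 1 panel for each comparison, with coloured lines at the 7 genes and a dotted line at the median of all genes. Line heights serve only to place the names, and Slamf7, which is below 5 RPKM, is drawn but not counted in the histogram. Slamf1 lies in the lower tail in both comparisons against N, and Slamf6 in the upper tail in PαA against αA.

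Slamf1 encodes CD150, a receptor that binds itself and carries the tyrosine motifs read by SAP. Its level was 33.6 RPKM in N, 17.8 in αA and 16.7 in PαA, from 2688, 1306 and 1145 exon reads. The N library was thus the high one, and both libraries with NFATc1/αA were low and close to each other. The difference was 1.89-fold in αA against N, a log2 ratio of -0.92 (-1.01 to -0.82). Of all genes above 5 RPKM, 3.63% had a lower ratio in this comparison. PαA and αA did not differ beyond counting error (log2 -0.09, -0.21 to 0.02). In PαA against N the difference was 2.01-fold, log2 -1.01 (-1.11 to -0.91), an interval that holds the 2-fold line. With TMM factors the log2 ratios against N were -0.75 and -0.78, so the direction held and the 2-fold call did not. All exon reads of Slamf1 were unique to 1 place in the genome. Reads across exon junctions, a subset of the exon reads that comes from spliced RNA, gave -0.71 (-0.93 to -0.49) for αA against N. Intron reads numbered 411, 245 and 207, a log2 ratio of -0.62 (-0.85 to -0.39), in a comparison in which all intron reads together stood at 0.51. Exon, junction and intron reads of Slamf1 were therefore all lower in αA than in N. In these bulk samples, fewer cells with a message and less message per cell cannot be told apart.

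Slamf6 encodes Ly108, which, like CD84, is known for adhesion between T cells and B cells. Its level was 24.7 RPKM in N, 16.8 in αA and 28.0 in PαA, from 5420, 3369 and 5250 exon reads, all unique. Here αA was the low library and PαA the high one, in contrast to Slamf1, which stayed low in PαA. The log2 ratio was -0.56 (-0.62 to -0.50) for αA against N and 0.74 (0.67 to 0.80) for PαA against αA, or 1.67-fold higher. With TMM factors these were -0.40 and 0.81. Of all genes above 5 RPKM, 96.5% had a lower ratio in PαA against αA. PαA against N gave a log2 ratio of 0.18 (0.12 to 0.23), which was 0.41 with TMM factors and -0.02 with TPM, so its direction depends on the scaling. Junction reads numbered 1500, 863 and 1419 and followed the exon reads, with -0.67 and 0.81 in the first pair of comparisons.

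Intron reads of Slamf6 went against its exon reads in αA against N and with them in PαA against αA. They numbered 212 in N, 281 in αA and 359 in PαA, which is lowest in N and not in αA. For αA against N their log2 ratio was 0.53 (0.27 to 0.80), on the other side of 0 from the exon ratio and close to that of all intron reads in the library (0.51). For PαA against αA it was 0.45 (0.22 to 0.68), while all intron reads stood at -0.42. An antisense gene, Gm37065, overlaps the start of Slamf6 in the GENCODE M21 annotation, and since the kit did not mark strand, reads from it cannot be told apart. The share of intron reads among all gene reads of the library was 3.62% in N, 5.30% in αA and 3.91% in PαA, and its part in these ratios was not tested.

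The ratio of Slamf1 to Slamf6 within a library does not depend on library scaling. Slamf1 stood at 1.36 times Slamf6 in N (1.29 to 1.42), at 1.06 times in αA (0.994 to 1.13) and at 0.597 times in PαA (0.559 to 0.636). The intervals of the 3 libraries do not overlap, and Slamf6 was the more abundant message only in PαA beyond counting error. Against the adaptor Sh2d1a, Slamf6 stood at 0.194, 0.156 and 0.265 and Slamf1 at 0.263, 0.165 and 0.158 in N, αA and PαA. Slamf1 was thus low against SAP in both libraries with NFATc1/αA, and Slamf6 in αA, with its highest value in PαA. All 21 pairs of the 7 genes were computed, and these pairs were chosen after their values were seen.

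**Figure D3:**
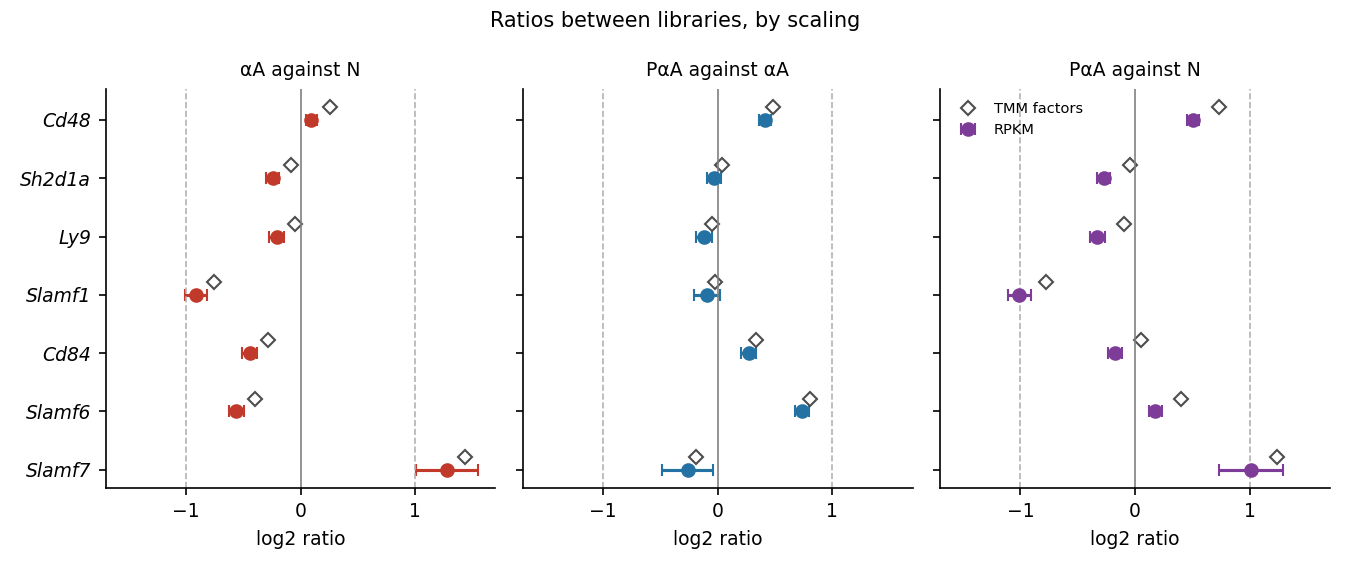
Log2 ratios of the 7 genes in the 3 comparisons, as filled circles for RPKM with 95% counting intervals and open diamonds for the same reads scaled by TMM factors. Dashed lines mark 2-fold. Diamonds lie to the right of the circles throughout, and Slamf1 is past the 2-fold line in PαA against N as a circle only.

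Cd84 encodes a receptor that binds itself. Its level was 26.8 RPKM in N, 19.7 in αA and 23.7 in PαA, from 4995, 3365 and 3790 exon reads. As for Slamf6, αA was the low library, but the distances were smaller. The log2 ratio was -0.44 (-0.51 to -0.38) for αA against N and 0.27 (0.20 to 0.34) for PαA against αA. PαA against N was -0.18 (-0.24 to -0.11) by RPKM and 0.05 with TMM factors, so no direction can be given. The share of unique exon reads was between 89.8% and 90.3%, and the unique reads gave -0.45 and 0.27 in the first pair of comparisons. Intron reads of Cd84 numbered 511, 214 and 387. Their log2 ratios, -1.13 (-1.37 to -0.90) and 0.95 (0.71 to 1.20), had the directions of the exon ratios at a larger size, while all intron reads went the other way in both comparisons. The intron reads of Slamf6 and Cd84 thus had opposite directions in αA against N and the same direction in PαA against αA.

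**Figure D4:**
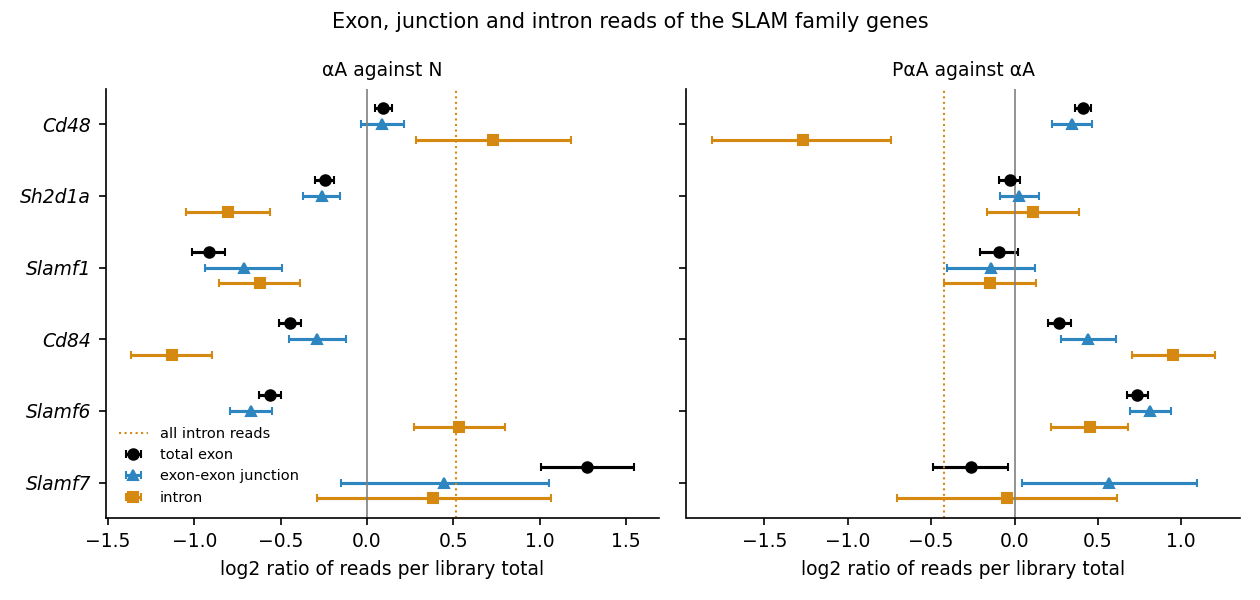
Log2 ratios of total exon reads (black circles), exon-exon junction reads (blue triangles) and intron reads (orange squares) per library total, with 95% counting intervals, for 6 genes, and dotted lines at the ratio of all intron reads. Ly9, which has at most 10 intron reads, is left out. The intron square of Slamf6 lies on the other side of 0 from its exon circle in αA against N, and that of Cd48 in PαA against αA. So does that of Sh2d1a in PαA against αA, where both intervals hold 0.

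Ly9 encodes CD229, the longest of these receptors outside the cell. Its level was 54.8 RPKM in N, 47.4 in αA and 43.7 in PαA, from 4611, 3654 and 3147 exon reads. N was highest and PαA lowest, with log2 ratios of -0.21 (-0.27 to -0.15) for αA against N and -0.12 (-0.19 to -0.05) for PαA against αA. With TMM factors both were -0.05, so for all exon reads most of this order goes with the scaling. Ly9 differs from the other 6 genes in how it was counted. Between 21.8% and 25.0% of its exon reads were counted as unique, against at least 89.8% for the others, and it had 10, 4 and 8 intron reads. The whole of Ly9 lies inside the span of Cd244 (Cd244a in GENCODE M21) on the other strand, with no exon bases shared. Cd244 itself had 19, 39 and 12 exon reads. Counted by unique reads, Ly9 dropped from place 3 to place 6 in each library, so its place in the order rests on reads that the count did not assign to 1 gene. For PαA against αA the unique reads gave -0.31 (-0.46 to -0.17), further from 0 than all exon reads. Junction reads gave -0.30 (-0.44 to -0.16) in the same comparison. Neither ratio was computed with TMM factors.

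Slamf7 encodes CRACC, a receptor that binds itself, signals without SAP, and is known from NK cells, plasma cells and myeloid cells. Its level was 1.25 RPKM in N (1.07 to 1.45), 3.02 in αA (2.73 to 3.34) and 2.52 in PαA (2.24 to 2.83), from 170, 377 and 294 exon reads. N was the low library and the 2 others were higher, although all lay below the 5 RPKM used for the counts. The log2 ratio was 1.28 (1.01 to 1.54) for αA against N, -0.26 (-0.49 to -0.04) for PαA against αA and 1.01 (0.74 to 1.29) for PαA against N. A pseudocount of 1 RPKM in both libraries brought the first of these to 0.84. Junction reads numbered 44, 55 and 76, and their ratio for αA against N was 0.45 (-0.15 to 1.05), which holds 0. The share of junction reads was 25.9% in N and PαA and 14.6% in αA (11.2% to 18.6%, exact binomial interval), so the exon reads of αA were poorer in junctions. For PαA against αA the junction reads gave 0.56 (0.04 to 1.09), in the other direction from the exon reads. An antisense gene, Gm37787, shares 423 exon bases with Slamf7 in GENCODE M21, 9.24% of its exon length, and reads from it cannot be told apart.

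Most of a set of tissue macrophage genes, chosen after the values were seen, were higher in αA and PαA than in N, as Slamf7 was. The pattern of a gene was compared with others by the Euclidean distance between log2 RPKM values centred over the 3 libraries. Among 6882 other genes above 5 RPKM with at least 100 reads in every library, the patterns over the 3 libraries most like that of Slamf7 were those of Slc40a1, the iron exporter, Adgre1, which encodes F4/80, and Gm4737. Slc40a1 was at 8.75, 21.1 and 18.2 RPKM and Adgre1 at 2.30, 5.32 and 4.93 RPKM in N, αA and PαA. A list of 10 macrophage genes, chosen after these values were seen and including Slc40a1 and Adgre1, summed to 168, 295 and 279 RPKM. All 10 were above 1 RPKM in every library. Its complement genes C1qa, C1qb and C1qc, the defining ones, were at 35.8, 28.3 and 31.8 RPKM in N, at 75.8, 42.0 and 47.0 in αA and at 78.4, 43.8 and 52.9 in PαA, and Cd5l was at 2.69, 14.5 and 9.41 RPKM. All 10 were higher in αA than in N, beside a median log2 ratio of -0.14 for all genes above 5 RPKM. As the whole list was chosen with these values known, this shared direction is no independent evidence. For Slc40a1 and Adgre1 it restates how they were picked. Vcam1, at 9.16, 15.1 and 8.01 RPKM, was however lower in PαA than in N. The other myeloid list of 8 genes summed to 257, 147 and 215 RPKM, most of it from Lyz2 at 214, 134 and 184 RPKM, and had no reads of S100a9, Ly6g and Retnlg in αA. Its receptor gene Csf1r was at 6.25, 10.6 and 6.62 RPKM, while Cd14 of the same list was at 2.33, 1.31 and 0.80 RPKM. The 5 genes for NK and CD8 cells summed to 15.8, 19.6 and 17.3 RPKM, and its members differed in direction. Klrb1c was at 2.92, 4.23 and 5.90 RPKM and Cd8a at 0.19, 2.10 and 2.90 RPKM, both higher where Slamf7 was higher, while Cd8b1 was lowest in PαA, with 5.24 RPKM, Eomes at 3.32, 0.91 and 3.02 RPKM and Ncr1 at 0.36 RPKM or below. The part of these cells in the level of Slamf7 was not tested.

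Cd48 encodes the lipid-anchored ligand of CD2 and CD244, found on most blood cells. It was the most abundant of the 7 messages, with 174 RPKM in N, 186 in αA and 248 in PαA from 6165, 6036 and 7508 exon reads, all unique. N and αA were close, and PαA was the high library. The log2 ratio was 0.10 (0.04 to 0.15) for αA against N, 0.41 (0.36 to 0.46) for PαA against αA and 0.51 (0.46 to 0.56) for PαA against N. TMM factors gave 0.26, 0.48 and 0.74, so the direction held and the size grew. Junction reads gave 0.34 (0.22 to 0.46) for PαA against αA. Intron reads numbered 71, 108 and 42, with a log2 ratio of -1.27 (-1.82 to -0.74) in the same comparison. Cd48 thus had its highest exon and its lowest intron count in PαA. Its nearest patterns, by the measure given above, were those of Bola2 and of the ribosomal protein genes Fau and Rpl37a.

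The lists of other cells that carry CD48 differed between the libraries as well. The 4 plasma cell genes summed to 92.0, 111 and 152 RPKM in N, αA and PαA. In this list Jchain was at 44.3, 58.4 and 94.8 RPKM, Sdc1 at 0.74, 1.03 and 5.97 RPKM, Xbp1 at 46.7, 50.4 and 50.9 RPKM, and Tnfrsf17 had no reads in PαA. The 6 dendritic cell genes summed to 49.9, 70.3 and 111 RPKM, most of it from H2-Aa, and Clec9a had no reads in PαA. The 8 B cell genes summed to 15.7 RPKM in αA, 16.5 in PαA and more in N. Its members went both ways, with Ms4a1 (CD20) at 1.88, 1.47 and 1.12 RPKM and Cd79a at 1.85, 1.64 and 3.96 RPKM in N, αA and PαA. The part of these cells in the level of Cd48 was not tested. The lists as a whole also bear on Slamf1, Slamf6, Cd84 and Ly9, as B cells and myeloid cells can express receptors of this family as well. The B cell list and the myeloid list with Lyz2 had their highest sums in N, where Slamf1 was highest too. The macrophage list had its lowest sum there. The part of these cells in the levels of these receptors was not tested either.

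Sh2d1a encodes SAP and lies on chromosome X, away from its receptors. Its level was 128 RPKM in N, 108 in αA and 106 in PαA, from 5785, 4475 and 4099 exon reads, all unique. N was the highest and αA and PαA lay within counting error of each other (log2 -0.03, -0.09 to 0.03). For αA against N the log2 ratio was -0.24 (-0.30 to -0.19), and with TMM factors it was -0.08, near the middle of all genes. Junction reads gave -0.26 (-0.37 to -0.15). Intron reads numbered 413, 217 and 219, with a log2 ratio of -0.80 (-1.05 to -0.56), while all intron reads stood at 0.51. Its exon model in the tables is 1523 bases long, against 5505 annotated exon bases in GENCODE M21, where its end overlaps 1465 exon bases of Tenm1 on the other strand. Reads of these genes cannot be told apart by strand in the stretch they share.

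With a pattern of 3 points, many genes come close to the other members of the family. For Slamf1 there were 42 genes within a distance of 0.1, for Slamf6 15, for Cd84 141, for Ly9 578, for Cd48 143, for Sh2d1a 532 and for Slamf7 1. The nearest to Slamf1 were Bmyc, Dpp4 and Bcor. Dpp4, which encodes the surface peptidase CD26, was at 16.4, 8.64 and 8.21 RPKM, and Bcor encodes a partner of Bcl-6. The nearest to Slamf6 were Cldnd1, Dynlt1f and Rps19bp1, and the nearest to Cd84 were Dusp4, Coro1c and Hnrnpdl. Those of Ly9 were Rab6a, Pot1a and Ints8, and those of Sh2d1a were Myl12b, Qsox1 and Map4k4.

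The 6 receptor genes lie side by side on chromosome 1, within chr1:171588624-171953170 of GRCm38, in the order Ly9, Slamf7, Cd48, Slamf1, Cd84 and Slamf6. Their span of 365 kb also holds the listed genes Gm37010, without exon length, and Gm10521, with at most 26 reads, and the end of Cd244. Ratios differed along the cluster, although some neighbours overlapped in their intervals, such as Cd84 and Slamf6 in αA against N and Ly9 and Slamf7 in PαA against αA. In αA against N, Slamf7 stood at a log2 ratio of 1.28 and Cd48 beside it at 0.10, followed by Slamf1 at -0.92, Cd84 at -0.44 and Slamf6 at -0.56. In PαA against αA, the ratios in order of position were -0.12 for Ly9, -0.26 for Slamf7, 0.41 for Cd48, -0.09 for Slamf1, 0.27 for Cd84 and 0.74 for Slamf6, with no steady trend over the cluster. Of 15 other genes that overlap the span or its 200 kb flanks, 7 were above 5 RPKM. Arhgap30 was at 42.0, 27.4 and 27.2 RPKM, with log2 ratios of -0.62 for αA against N and -0.01 for PαA against αA, and so had the pattern of Slamf1 at a smaller size. Alyref2 was the only one of the 7 past 2-fold, as higher in PαA against N, with 4.31, 5.25 and 9.01 RPKM from 163, 182 and 292 reads. The other 5 had log2 ratios between -0.21 and 0.26 in αA against N and between -0.41 and 0.08 in PαA against αA.

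**Figure D5:**
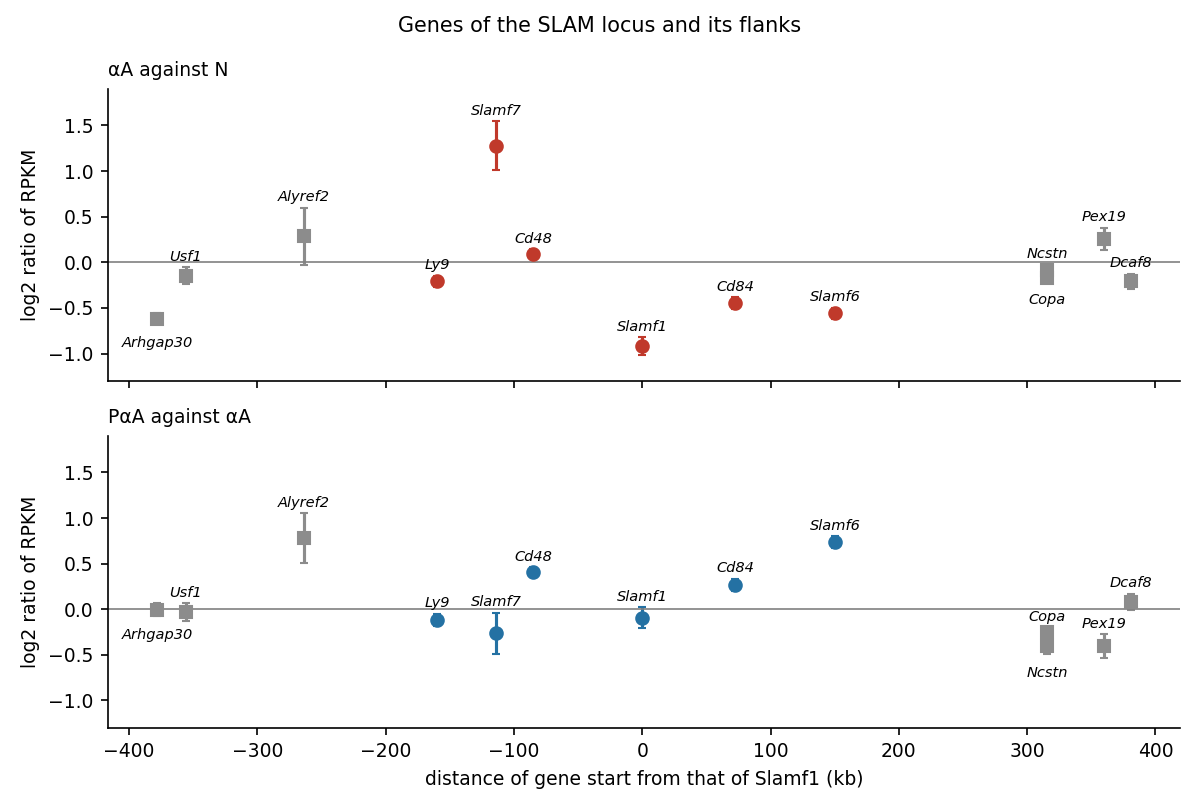
Log2 ratio of RPKM with 95% counting intervals against the distance of each gene's start from that of Slamf1 in kilobases, for αA against N (top) and PαA against αA (bottom). Circles are SLAM receptors and grey squares are other genes above 5 RPKM. The 3 receptors from Slamf1 to the right lie below 0 in the top panel, and in the bottom one Cd48, Cd84 and Slamf6 lie above 0.

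Promoter sequences were at hand for 5 of the 7 genes in RefSeq, on GRCm38.p6, and those of the 4 genes whose ratios differed most are shown, as the 250 bases before the start. Capitals mark the letters GGAAA, the core read by NFAT factors, and GAAAG, a core of Blimp-1 sites, searched on both strands (TTTCC and CTTTC), which overlap where they read CTTTCC.
Slamf1: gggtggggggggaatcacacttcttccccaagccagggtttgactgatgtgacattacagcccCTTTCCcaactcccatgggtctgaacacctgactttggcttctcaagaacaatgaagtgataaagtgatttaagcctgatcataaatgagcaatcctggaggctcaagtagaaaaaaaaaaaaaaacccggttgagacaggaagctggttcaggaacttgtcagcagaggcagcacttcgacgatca
Slamf6: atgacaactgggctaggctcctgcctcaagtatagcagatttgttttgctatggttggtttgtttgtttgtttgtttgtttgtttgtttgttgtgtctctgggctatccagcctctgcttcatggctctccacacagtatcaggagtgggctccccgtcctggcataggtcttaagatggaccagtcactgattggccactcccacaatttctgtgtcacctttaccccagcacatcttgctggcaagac
Slamf7: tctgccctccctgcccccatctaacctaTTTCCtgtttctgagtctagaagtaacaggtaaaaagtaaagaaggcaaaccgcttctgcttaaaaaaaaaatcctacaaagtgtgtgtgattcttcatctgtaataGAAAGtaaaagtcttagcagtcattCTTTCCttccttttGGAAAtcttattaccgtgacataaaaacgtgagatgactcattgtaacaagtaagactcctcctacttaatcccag
Cd48: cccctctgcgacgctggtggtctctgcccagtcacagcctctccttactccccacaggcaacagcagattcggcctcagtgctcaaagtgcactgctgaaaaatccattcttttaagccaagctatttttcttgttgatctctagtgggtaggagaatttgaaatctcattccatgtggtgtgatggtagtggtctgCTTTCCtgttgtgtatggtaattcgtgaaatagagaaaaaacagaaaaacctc
These are chr1:171766882-171767131 (+), chr1:171917212-171917461 (+), chr1:171649000-171649249 (-) and chr1:171681742-171681991 (+), each printed along the gene's own strand, and the RefSeq start of Slamf7 lies inside the gene span of the tables.

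GGAAA was found 3 times before Slamf7, 1 time each before Slamf1, Cd48 and Cd84, and 0 times before Slamf6. GAAAG was found 2 times before Slamf7, 1 time each before Slamf1 and Cd48, and 0 times before Cd84 and Slamf6. Of 32851 RefSeq promoters of the same length, 55.6% hold GGAAA and 51.5% hold GAAAG, so such matches are common. The longer AGNGAAAG, added after the data were seen, is in 7.30% of all promoters and in none of these 5. A match is a description of letters, not a bound site, and the lack of one says only that the letters are not in this window.

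A wider pathway list drawn around SLAM and SAP signalling was described, which also holds genes outside both families, such as Cd226 and Sh2b3. It had 45 further genes, of which 36 were above 5 RPKM. Their median log2 ratio was -0.11 for αA against N, -0.18 for PαA against αA and -0.45 for PαA against N, beside -0.14, -0.06 and -0.19 for all genes above 5 RPKM. In αA against N, 0 passed 2-fold as higher and 1, Il4, as lower (background 1.44% and 2.81%). In PαA against αA, 0 were higher and 2 lower, Malt1 and Egr2 (2.18% and 2.45%). In PαA against N, 1 was higher, Cd226, and 4 were lower, Malt1, Rasa1, Il4 and Egr2 (2.57% and 7.77%). With TMM factors Egr2 alone remained lower in this comparison, and the adaptor gene Sh2b3 passed as higher beside Cd226.

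Among the other receptors and ligands, Cd2, the partner of CD48, was at 636, 674 and 526 RPKM. Cd244, the other partner of CD48, was at 0.31 RPKM or below in each library. Cd226, which encodes an activating receptor of T and NK cells, was at 16.5, 24.3 and 39.0 RPKM, a log2 ratio of 1.24 (1.14 to 1.34) for PαA against N. Slamf8 and Slamf9 stayed at 2.77 RPKM or below. Of the other SH2 domain adaptors, Sh2d1b1 (EAT-2), of the SAP family, through which Slamf7 signals, was at 0.56, 0.89 and 0.86 RPKM. Sh2d2a (TSAd), which is not of that family, was at 47.0, 56.1 and 42.7 RPKM. The level of Sh2d1a was above that of these adaptors in every library.

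Fyn, the kinase that SAP recruits, was at 108, 112 and 76.7 RPKM, with a log2 ratio of -0.55 (-0.59 to -0.51) for PαA against αA. Malt1, which carries the signal on to NF-κB, was at 18.9, 25.0 and 9.41 RPKM, 2.65-fold lower in PαA than in αA. Rasa1, a Ras inhibitor, was at 14.7, 11.7 and 6.57 RPKM. Both genes thus had their lowest level in PαA. Of the phosphatases that compete with SAP, Ptpn6 (SHP-1) was at 59.1, 37.8 and 52.4 RPKM, low in αA like Slamf6 and Cd84, and Ptpn11 (SHP-2) was at 29.4, 21.8 and 17.7 RPKM. Of the readouts further down, Il4 had 254, 68 and 104 reads or 8.69, 2.54 and 4.15 RPKM, a log2 ratio of -1.78 (-2.18 to -1.38) for αA against N. By total gene reads, introns included, it was -0.84, which ends the 2-fold call, and PαA against αA turned from 0.71 to -0.10. Gata3, the factor that drives Il4, was at 53.6, 28.7 and 32.3 RPKM, and Egr2 at 21.7, 15.5 and 6.11 RPKM. Like Slamf1, Gata3 and Il4 were highest in N, and no relation between them was tested.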

How the data were processed

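Poly(A) libraries were prepared from 10 ng RNA of sorted TFR cells with a kit that does not mark strand, and single reads were sequenced. The authors aligned the reads to GRCm38 and counted them with the defaults of CLC Genomics Workbench. The annotation release is not given in the sources used here. The authors deposited raw counts for each of 25759 genes, as whole numbers of total exon, unique exon, junction, intron and gene reads. They also deposited RPKM and TPM, and the RPKM equal exon reads over exon length and a library total, which was recovered from them. Of the genes, 3715 with an exon length of 0 were not used. Samples were grouped by their labels.

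Ratios of RPKM were computed for αA against N, PαA against αA and PαA against N, with Clopper-Pearson (exact binomial) intervals on the split of reads and Poisson intervals on single levels, at 95%. Genes count as expressed above 5 RPKM in at least 1 library and as called past 2-fold, and 3 reads are the floor. With 1 library a genotype no test was run. The 7 genes, the pathway and marker lists and the rules were chosen with earlier results of these data known, and the macrophage list after the present values were seen. Named are the 7 genes, genes of the pathway list and the locus past 2-fold and up to 10 others of them above 5 RPKM, the targeted and marker genes, and the 3 nearest patterns of each gene. Listed genes below 5 RPKM and the gene pairs were chosen for the text after their values were seen.

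Alternatives were TPM, TMM factors (edgeR 4.0.16 in R 4.3.3, used for scaling only), median-of-ratios size factors, unique exon reads, gene reads, pseudocounts of 1 and 0.1 RPKM, thresholds of 1 RPKM or none, and 1.5-fold. Added after the data were seen were centring on the median gene and junction reads. Gene spans were compared with GENCODE M21, whose spans of all 7 genes equal those of the tables. The other steps used Python 3.11.15, pandas 2.3.3, numpy 2.4.6, scipy 1.17.1 and matplotlib 3.10.9, and the intervals were tested on simulated counts. Those counts were drawn with Poisson counting error only, so they say nothing about amplification or differences between mice. Single values of 1 marker gene are not given.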

Additional observations from a re-analysis of the deposited data

How the results depend on the processing

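Without the RPKM threshold or with one of 1 RPKM, the number of genes past 2-fold was 1 in αA against N and 2 in PαA against N, since Slamf7 was added. At 1.5-fold by RPKM it was 1 in αA against N (Slamf1) and 1 in PαA against αA (Slamf6). In PαA against N the call of Slamf1 was lost, leaving 0, with TMM factors, median-of-ratios factors, total gene reads, a pseudocount of 1 and centring on the median gene, the last chosen after the data were seen. The median log2 ratio of the 6 genes in αA against N was -0.18 with TMM and -0.17 with median-of-ratios factors, and in PαA against αA it was -0.045 with TPM. In PαA against N it was -0.42 with TPM, 0.0045 with TMM and 0.020 with median-of-ratios factors. Of the pathway list, 0 genes passed in αA against N with gene reads, as Il4 was lost, and 3 in PαA against N with TMM factors, median-of-ratios factors or gene reads. Of 147 log2 ratios of single genes under these settings, centring and junction reads left out, 49 lay outside the counting interval of the RPKM ratio. Of the same 147, 142 kept their sign. The 5 others were Sh2d1a in PαA against αA (0.04 with TMM and 0.04 with median-of-ratios factors), Slamf6 in PαA against N (-0.02 with TPM) and Cd84 in PαA against N (0.05 with TMM and 0.07 with median-of-ratios factors). No library could be left out, as each genotype has 1, and no difference between genotypes can be told apart from one between mice or library preparations. Counting intervals cover the depth only, which limits Slamf7 most, with 170 to 377 reads.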
